A study of Mus musculus with 6 samples.

Results

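The 10 genes described here, Vim, Nes, Fabp7, Slc1a3, Slc1a2, Tnc, Ptprz1, Hopx, Luzp2 and Aldh1l1, are known markers of radial glia and of the astrocytes that form from them. The set is defined by gene name, with no threshold on a measured value, but it was chosen with earlier results of these data known. It holds 10 of the 26852 genes measured in RNA-sequencing of embryonic mouse midbrain. RNA was taken from whole midbrains dissected at E14.5, and 3 libraries of Lmx1b conditional knock-out (cKO) embryos were compared with 3 control libraries. Each library held the RNA of 2 pooled embryos, and the embryos came from 4 litters. The cKO embryos were Lmx1b fl/fl; Pitx3-Cre and the controls were Lmx1b wt/wt; Pitx3-Cre, on a C57Bl/6 background. All embryos therefore carried the Cre, which sits in the Pitx3 locus, and none of the groups was free of it. Pitx3 is expressed in post-mitotic meso-diencephalic dopaminergic neurons, so the deletion is directed to these neurons and not to radial glia, and a dissected midbrain holds both.

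Radial glia are the progenitors that line the ventricle and send a long process to the surface of the brain. They give rise to neurons, which migrate along these processes, and later to astrocytes. They share with young astrocytes the intermediate filaments vimentin and nestin, a brain lipid-binding protein, glutamate transporters and a matrix rich in tenascin and proteoglycans, whereas GFAP is abundant in mouse astrocytes mainly at later stages.

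The deposited table gives the mean of each group in normalized counts, that is, read counts divided by a size factor for each library. The whole reads behind each mean were recovered as described under the processing, with a single answer in both groups for 26807 genes (99.8%), among them all 10 genes. Between 27103758 and 32810546 reads per library were recovered, and 0.215% to 0.263% of them lay on the 10 genes. A recovered library has a known genotype but no sample number, so the letters a, b and c name the replicates within a group by falling size factor. Lmx1b itself had 1257, 1401 and 1455 normalized counts in cKO libraries, against 1368, 1352 and 1474 in controls. These values overlap, so the total of Lmx1b, which other cells of the midbrain also express, gives no check of the labels, and every direction here is that of the libraries labelled cKO. In bulk tissue, fewer cells of a type and less RNA per cell cannot be told apart.

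All 10 genes were detected in all 6 libraries, 9 of them with at least 1748 reads in each. Per kilobase of exon, Fabp7 stood far above the others, with 10980 ± 222 normalized counts (SD, n = 3) in the control. Vim followed with 2331 ± 331, a level 4.71 times lower than that of Fabp7. Nes had 1157 ± 45.4, Tnc 1057 ± 125 and Ptprz1 950.0 ± 15.5 normalized counts per kilobase, and in this order the control libraries of Nes and Tnc overlapped, as did those of Tnc and Ptprz1. Slc1a2 (667 ± 25.9), Aldh1l1 (628 ± 2.97), Slc1a3 (573 ± 49.7) and Luzp2 (432 ± 48.3) formed the lower part of the order, and the control libraries of these neighbours did not overlap. Hopx was last with 67.1 ± 15 normalized counts per kilobase, which rested on 56 to 128 reads per library. Fabp7, Vim, Slc1a2, Aldh1l1, Slc1a3, Luzp2 and Hopx held the same place in all 6 libraries, and Nes, Tnc and Ptprz1 exchanged places 3, 4 and 5 among themselves. The exon length counts every annotated exon of a gene, so a gene with long or rarely used exons has a lower value per kilobase than its main transcript alone would give.

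**Figure D1:**
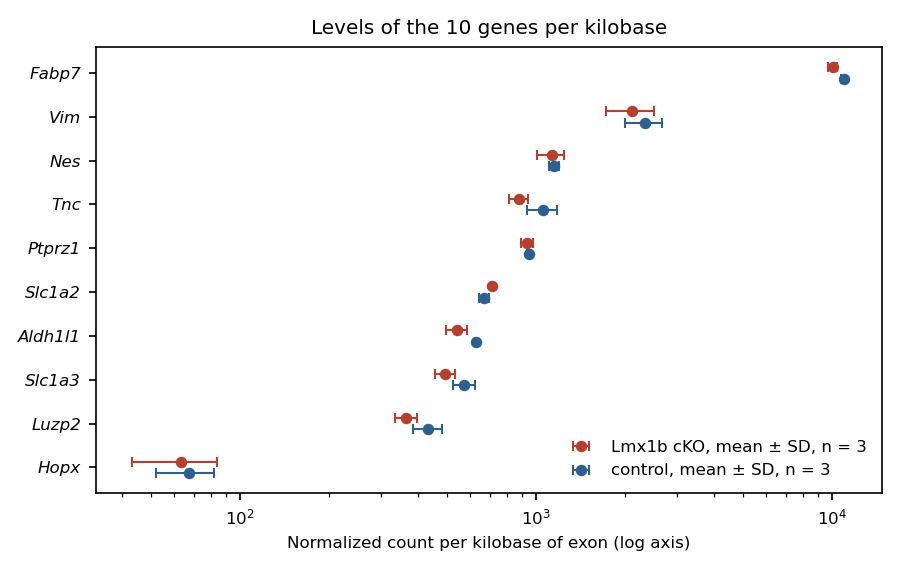
Normalized counts per kilobase of exon (log axis) of the 10 genes in Lmx1b cKO (red) and control (blue) midbrain, as mean ± SD of 3 libraries, ordered by the control. Fabp7 lies above the other 9 genes in both genotypes and Hopx below 100, and the order of the other genes is nearly the same in both genotypes.

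Gfap, the filament of mature astrocytes, had 0, 0 and 10.8 normalized counts in cKO libraries, against 1.77, 0.96 and 1.08 in controls. The highest value, in cKO replicate c, rested on 10 reads. S100b, a calcium-binding protein of later astrocytes, lay between 2.11 and 14.1 normalized counts in the 6 libraries, and Aqp4, the water channel of astrocyte endfeet, had 62.7 ± 23.4 in cKO, against 93.7 ± 22.7 in control. Per kilobase, Gfap (0.30) and S100b (3.99 normalized counts in the control) were below Hopx, the lowest of the 10 genes.

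Between the genotypes, 9 of the 10 genes had a lower mean in the cKO and Slc1a2 had a higher one. On the log2 scale, 49.5% of all genes tested were lower. Of the 9 genes, Vim, Nes, Ptprz1 and Hopx changed sign in fits that left out a library. The differences were small. The lowest ratio was that of Tnc, whose cKO mean was 82.9% of the control mean, and Slc1a2 reached 107%. In limma, 5 genes had an unadjusted p under 0.05, all of them lower in the cKO (Tnc, Luzp2, Aldh1l1, Slc1a3 and Fabp7), where 1.61% of the 17132 genes tested were lower with such a p and 1.16% higher. The set was chosen with earlier results of these data known, so this contrast is a description only. After Benjamini-Hochberg adjustment over all genes tested in limma, 0 of the 10 genes and 0 of all genes passed 0.05 (0% called), and the adjusted p of each of the 10 genes was 1.00. None of the differences below therefore passed the test, and each is given as a value with its error. The median log2 fold change of the 10 genes was -0.14, against 0.0012 for all genes tested. Leaving out cKO replicate a, cKO replicate b or control replicate a lowered the number of genes with an unadjusted p under 0.05 from 5 to 3 in each case, while the share of all genes tested with such a p, in either direction, was 2.82%, 2.92% and 3.8% in these fits, against 2.76% with all libraries.

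**Figure D2:**
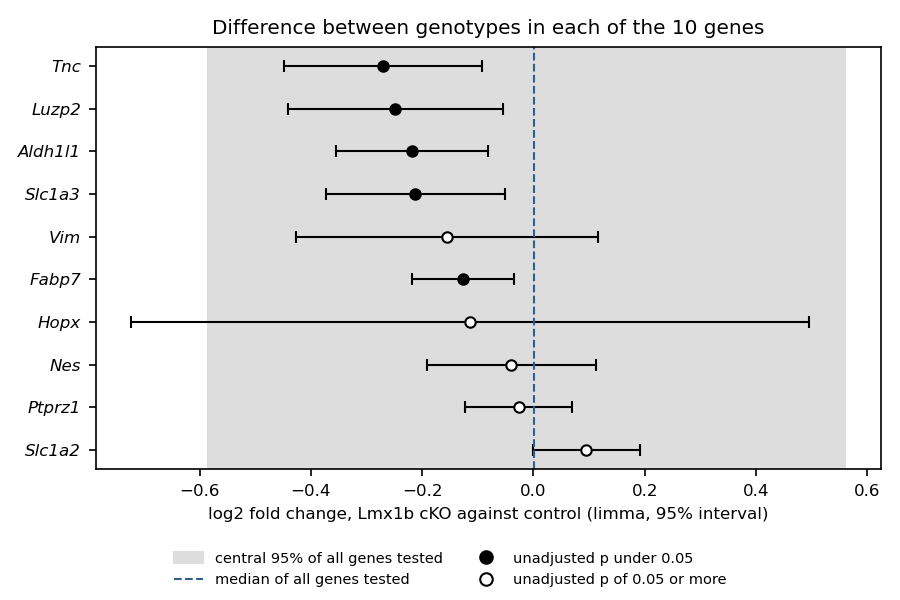
log2 fold change of each gene, cKO against control, with its 95% interval from limma. Filled points have an unadjusted p under 0.05, the dashed line is the median of all 17132 genes tested, and the grey band holds the central 95% of their log2 fold changes, from -0.58 to 0.56. The points of all 10 genes lie inside the band, 9 of them left of 0.

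The genotype groups did not overlap for 3 of the 10 genes. Fabp7 and Aldh1l1 were lower in every cKO library than in any control library, a pattern that 3.69% of all genes tested showed, and Slc1a2 was higher in every cKO library, as were 3.88% of all genes. With 3 libraries against 3, the exact permutation test (two-sided) cannot go below 0.1, so it could not pass 0.05 for any gene.

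**Figure D3:**
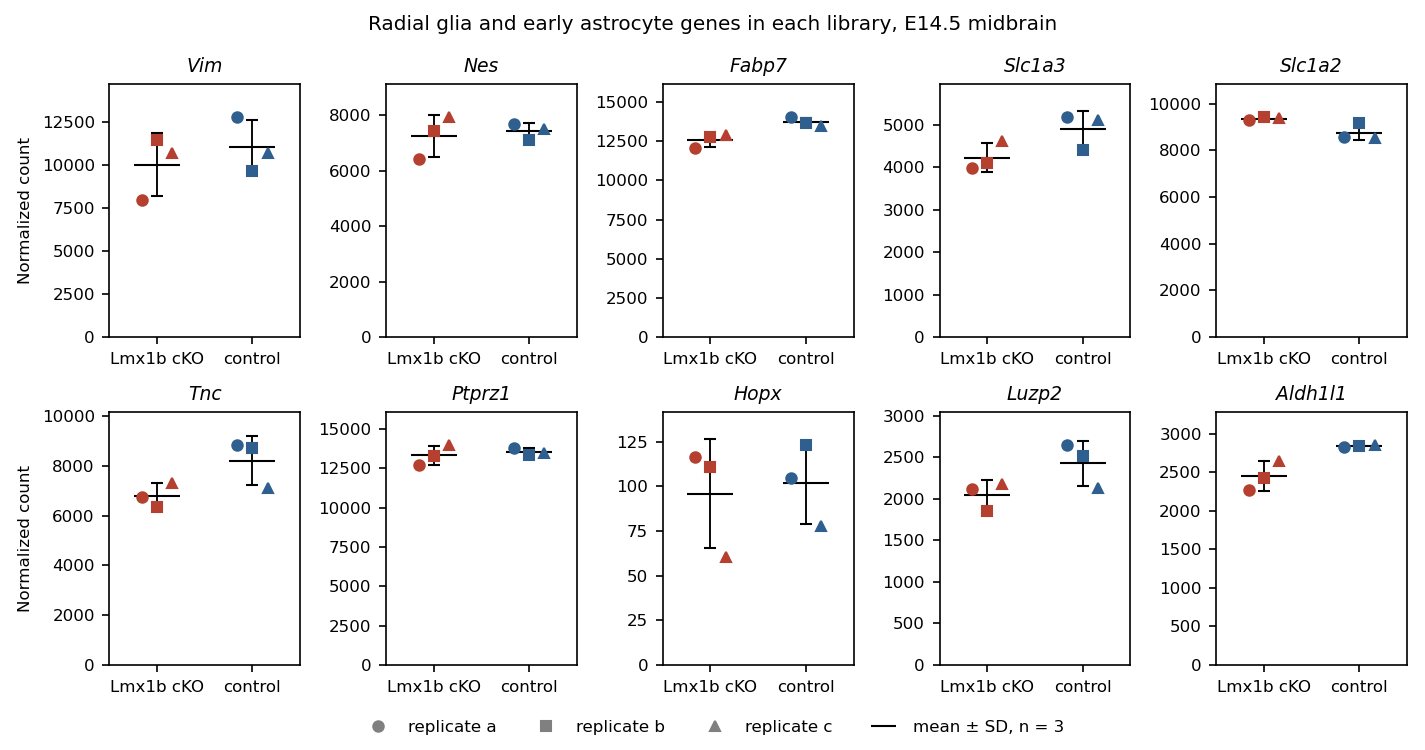
Normalized counts (axes from 0) of the 10 genes in the 3 cKO libraries (red) and the 3 control libraries (blue), with mean ± SD. The groups are apart for Fabp7, Aldh1l1 and Slc1a2, and cKO replicate a is the lowest library for 6 of the 10 genes.

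Neither of the 2 intermediate filaments had an unadjusted p under 0.05. Vim (ENSMUSG00000026728, chromosome 2 of GRCm38, 13573927 to 13582826) encodes vimentin, a filament of radial glia and also of vessels and mesenchyme. The cKO libraries gave 7948, 11449 and 10698 normalized counts, while the controls gave 12766, 9677 and 10725. The groups overlapped widely, with the lowest value in cKO replicate a and the highest in control replicate a. The means of 10031 ± 1843 and 11056 ± 1570.5 (SD, n = 3) gave a log2 fold change of -0.16 (standard error 0.12, unadjusted p = 0.237 in limma). The log2 fold change was 0.0087 without cKO replicate a and -0.044 without control replicate a, and between -0.26 and -0.17 without any other library.

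Nes (ENSMUSG00000004891, chromosome 3, 87971078 to 87980451) encodes nestin, the filament of neural progenitors. Libraries of the cKO had 6428, 7433 and 7912 normalized counts, those of the control 7662, 7098 and 7504. The control libraries lay inside the range of the cKO libraries, which held both the lowest and the highest value. The log2 fold change was -0.040, with a 95% interval of -0.19 to 0.11, and it was 0.048 without cKO replicate a.

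Fabp7 (ENSMUSG00000019874, chromosome 10, 57784881 to 57788450) encodes brain lipid-binding protein, which carries fatty acids in radial glia. Libraries of the cKO had 12102, 12784 and 12896 normalized counts, those of the control 14024, 13675 and 13475. The cKO libraries were all below the controls, although the gap between the nearest libraries was narrow. The means of 12594 ± 430 and 13725 ± 278 (SD, n = 3) gave a log2 fold change of -0.13 (standard error 0.042, unadjusted p = 0.0115 in limma, 95% interval -0.22 to -0.034). The exact permutation test gave p = 0.1, the smallest it can give. Without cKO replicate a, the log2 fold change was -0.097 with an unadjusted p of 0.0530 in limma.

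The 2 glutamate transporters went in opposite directions. Both proteins clear glutamate from the space around cells; Slc1a3 (GLAST) appears early in radial glia, and Slc1a2 (GLT-1) becomes the main transporter of astrocytes as the brain matures. Slc1a3 (ENSMUSG00000005360, chromosome 15, minus strand, 8634124 to 8710764) had 3972, 4093 and 4615 normalized counts in cKO libraries, against 5171, 4404 and 5103 in controls. The groups overlapped, since cKO replicate c was above control replicate b. The means of 4227 ± 342 and 4893 ± 424 (SD, n = 3) gave a log2 fold change of -0.21 (standard error 0.074, unadjusted p = 0.0144 in limma; exact permutation test, two-sided, p = 0.2). This p rested on several libraries: it was 0.0603 without cKO replicate a, 0.0514 without cKO replicate b, 0.0522 when control replicate a was left out and 0.0602 when control replicate c was, with log2 fold changes between -0.29 and -0.17 over the 6 fits that left out a library.

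Slc1a2 (ENSMUSG00000005089, chromosome 2, 102658659 to 102790784) had 9298, 9411 and 9376 normalized counts in cKO libraries, against 8588, 9158 and 8550 in controls. All 3 cKO libraries were above all 3 control libraries, and they lay within a much narrower range than the controls. The means of 9362 ± 58.2 and 8765 ± 340.3 (SD, n = 3) gave a log2 fold change of 0.095 (standard error 0.044, unadjusted p = 0.0508 in limma, 95% interval -0.00038 to 0.19). The p lay at the threshold and crossed it under 4 alternatives and without control replicate b, where it was 0.0195 with a log2 fold change of 0.13. The contrast of the 2 transporters was noticed after their values had been seen. Per kilobase, the ratio of Slc1a2 to Slc1a3 was 1.52, 1.49 and 1.32 in cKO libraries, against 1.08, 1.35 and 1.09 in controls, so that cKO replicate c lay below control replicate b (exact permutation test, two-sided, p = 0.2, or 0.3 after Benjamini-Hochberg adjustment over the 3 ratios of this kind that were computed). An antisense transcript, Gm13872, shares 1.44% of the exon length of Slc1a2.

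The matrix gene and its receptor were measured at similar levels per kilobase. Tnc (ENSMUSG00000028364, chromosome 4, minus strand, 63959785 to 64047015) encodes tenascin-C, an extracellular glycoprotein of the radial glial and astrocyte matrix that mesenchyme also makes. Read in the order a, b and c, it gave 6755, 6334 and 7332 normalized counts in cKO, 8832, 8712 and 7094 in control. Control replicates a and b were above all others, whereas control replicate c lay within the range of the cKO libraries. The means of 6807 ± 501 and 8212 ± 971 (SD, n = 3) gave a log2 fold change of -0.27 (standard error 0.081, unadjusted p = 0.00642 in limma; exact permutation test, two-sided, p = 0.2). It stayed from -0.37 to -0.21 in the 6 fits that left out a library, with an unadjusted p of at most 0.0356. The transcript 8030451A03Rik on the opposite strand shares 2.27% of the exon length of Tnc.

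RefSeq gives 12 promoters for the 10 genes on GRCm38.p6, with Tnc and Hopx having a pair each. The 250 bases before each start were searched on both strands for a short site of the NFI factors, which act in the switch from neurons to glia (TTGGCA or TGCCAA), for the RBPJ site of Notch signalling (GTGGGAA or TTCCCAC) and for a SOX core (AACAAT or ATTGTT). Of all 32851 promoters, 12.3%, 5.42% and 9.42% hold these letters. The only matches among the 10 genes were in the second promoters of Tnc and Hopx, which are shown because they carry them. The sequence of Fabp7 is shown as that of the gene with the highest level per kilobase. The capitals mark the matches, which begin 82 bases (RBPJ) and 19 bases (NFI site) before the start of Tnc and 179 bases (SOX) before that of Hopx. A match is only a description of the letters.
Tnc, chr4:64046937-64047186, minus strand: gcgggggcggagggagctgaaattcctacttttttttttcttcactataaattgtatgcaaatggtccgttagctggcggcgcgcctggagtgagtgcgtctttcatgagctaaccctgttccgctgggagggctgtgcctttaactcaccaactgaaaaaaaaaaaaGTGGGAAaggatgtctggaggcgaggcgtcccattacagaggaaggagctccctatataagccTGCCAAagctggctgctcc
Hopx, chr5:77095268-77095517, minus strand: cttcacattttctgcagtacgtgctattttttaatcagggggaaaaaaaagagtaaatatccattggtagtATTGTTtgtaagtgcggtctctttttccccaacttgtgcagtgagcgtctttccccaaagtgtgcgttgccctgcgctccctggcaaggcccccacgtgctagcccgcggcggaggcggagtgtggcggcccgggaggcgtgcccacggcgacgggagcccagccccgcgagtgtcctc
Fabp7, chr10:57784673-57784922, plus strand: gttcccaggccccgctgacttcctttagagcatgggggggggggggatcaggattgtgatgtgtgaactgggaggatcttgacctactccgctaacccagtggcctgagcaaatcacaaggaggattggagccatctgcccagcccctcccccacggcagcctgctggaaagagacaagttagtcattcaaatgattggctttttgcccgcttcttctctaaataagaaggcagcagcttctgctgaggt

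Ptprz1 (ENSMUSG00000068748, chromosome 6, 22875502 to 23052916) encodes a receptor-type phosphatase and proteoglycan of glial progenitors that binds tenascins and pleiotrophin. Read in the order a, b and c, it gave 12705, 13255 and 13958 normalized counts in cKO, 13783, 13367 and 13449 in control. The controls lay inside the range of the cKO libraries. The log2 fold change of -0.027 had a 95% interval of -0.12 to 0.070, and its sign turned to 0.0070 without cKO replicate a. Its ligand pleiotrophin (Ptn) had 7771 ± 786 normalized counts in cKO, against 8005 ± 1330 in control, a log2 fold change of -0.039.

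Of the 3 remaining genes, Aldh1l1 and Luzp2 had lower means in the cKO with an unadjusted p under 0.05, and Hopx did not. Aldh1l1 (ENSMUSG00000030088, chromosome 6, 90486427 to 90600203) encodes a folate enzyme used as a marker of astrocytes. In the cKO, libraries a, b and c gave 2263, 2430 and 2651 normalized counts, against 2822, 2836 and 2849 for the controls. All 3 cKO libraries were lower, and the control libraries were nearly equal, with a coefficient of variation of 0.472%. The means of 2448 ± 195 and 2836 ± 13.4 (SD, n = 3) gave a log2 fold change of -0.22 (standard error 0.063, unadjusted p = 0.00484 in limma; exact permutation test, two-sided, p = 0.1). The unadjusted p stayed at or below 0.0264 in the 6 fits that left out a library. The antisense transcript Gm15756 shares 11.1% of the exon length of Aldh1l1, and Gm45901 on the same strand 2.33%. Whether strand was used in the counting is not given in the sources used here, so reads of Gm15756 may not be told apart from those of Aldh1l1.

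Luzp2 (ENSMUSG00000063297, chromosome 7, 54835498 to 55268885) encodes a leucine zipper protein found in radial glia and astrocytes, the function of which is little known. In the cKO, libraries a, b and c gave 2116, 1847 and 2183 normalized counts, against 2645, 2519 and 2124 for the controls. As with Tnc, control replicates a and b were the highest, and control replicate c fell among the cKO libraries. The means of 2049 ± 178 and 2429 ± 271 (SD, n = 3) gave a log2 fold change of -0.25 (standard error 0.088, unadjusted p = 0.0163 in limma; exact permutation test, two-sided, p = 0.2). The unadjusted p was 0.0833 without cKO replicate b and 0.0670 without control replicate a.

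Hopx (ENSMUSG00000059325, chromosome 5, minus strand, 77086988 to 77115121) encodes a small homeodomain protein that lacks DNA binding and marks a class of radial glia and later astrocytes. The cKO libraries gave 116, 111 and 60.6 normalized counts, while the controls gave 104, 123 and 77.8. Replicate c was the lowest in both groups, and the spread within a group was larger than the difference between the means of 95.9 ± 30.7 and 102 ± 22.7 (SD, n = 3). The log2 fold change of -0.11 had a 95% interval of -0.72 to 0.49, so a difference of the size seen for Tnc was not detectable for Hopx with this spread, a coefficient of variation of 32.0% in cKO and 22.3% in control. Its sign turned without cKO replicate c (0.17), without control replicate b (0.030) and with the summed level of mesenchyme genes, given below, as a covariate (0.31, unadjusted p = 0.303 in limma). The antisense transcript Hopxos shares 27.2% of the exon length of Hopx.

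Over the libraries, the 10 genes did not follow a single profile. Control replicate a was the highest library for 5 of them (Fabp7, Slc1a3, Tnc, Luzp2 and Vim) and the lowest for 0. cKO replicate a was the lowest for 6 (Fabp7, Slc1a3, Vim, Nes, Ptprz1 and Aldh1l1) and the highest for 0. Summed over the 10 genes, the cKO libraries had 63702, 69149 and 71682 normalized counts, against 76396, 71569 and 70952 in controls. The sums overlapped, as cKO replicate c lay between the controls.

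Likeness to the mean profile of the 10 genes was measured as the root mean square difference of log2 values centred on their mean over the 6 libraries. Fabp7 was nearest, with 0.027, and Hopx farthest, with 0.35, while a profile with no differences at all had 0.080. Of the 10 genes, only Fabp7 and Ptprz1 (0.067) were nearer to the mean profile than this flat one. The distance of each gene from the flat profile was not measured, so how well the mean profile describes its members was not tested. Of the 12891 other genes whose mean was at least 100 normalized counts, the nearest were Nbn (0.018), a DNA repair protein, Vgll4 (0.026), a cofactor of TEAD factors, 2900076A07Rik (0.028), Psme2 (0.029), a proteasome activator, and Tyw3 (0.029), an enzyme of tRNA modification. All 5 had a lower mean in the cKO, with log2 fold changes from -0.15 to -0.10 and unadjusted p-values in limma from 0.128 to 0.264. With 12891 genes and 6 libraries, near profiles of this kind are a description of these libraries only.

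The other genes of the radial glia and astrocyte lineage were taken from lists of 47 genes, of which 43 averaged at least 10 normalized counts and were tested. The lists were written with earlier results of these data known, and they rest on the same libraries as the 10 genes. Of the 43 genes, 36 had a lower and 7 a higher mean in the cKO on the log2 scale, where 49.5% of all genes tested were lower. With an unadjusted p under 0.05, 9 genes (20.9%) were lower and 0 higher, against 1.61% and 1.16% of all genes tested, and 0 passed after adjustment in limma (adjusted p = 1.00 for each of the 9). The median log2 fold change of the 43 genes was -0.13. Leaving out cKO replicate c raised the count from 9 to 16, of which 14 were lower, and leaving out control replicate b raised it to 14, of which 12 were lower. The share of all genes tested with such a p, in either direction, was 3.42% and 3.45% in these fits. Summed over the recovered genes of these lists, the cKO libraries had 118841, 124344 and 125776 normalized counts, against 129026, 131378 and 127148 in controls. Here the sums did not overlap, although the nearest libraries, cKO replicate c and control replicate c, differed by little.

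**Figure D4:**
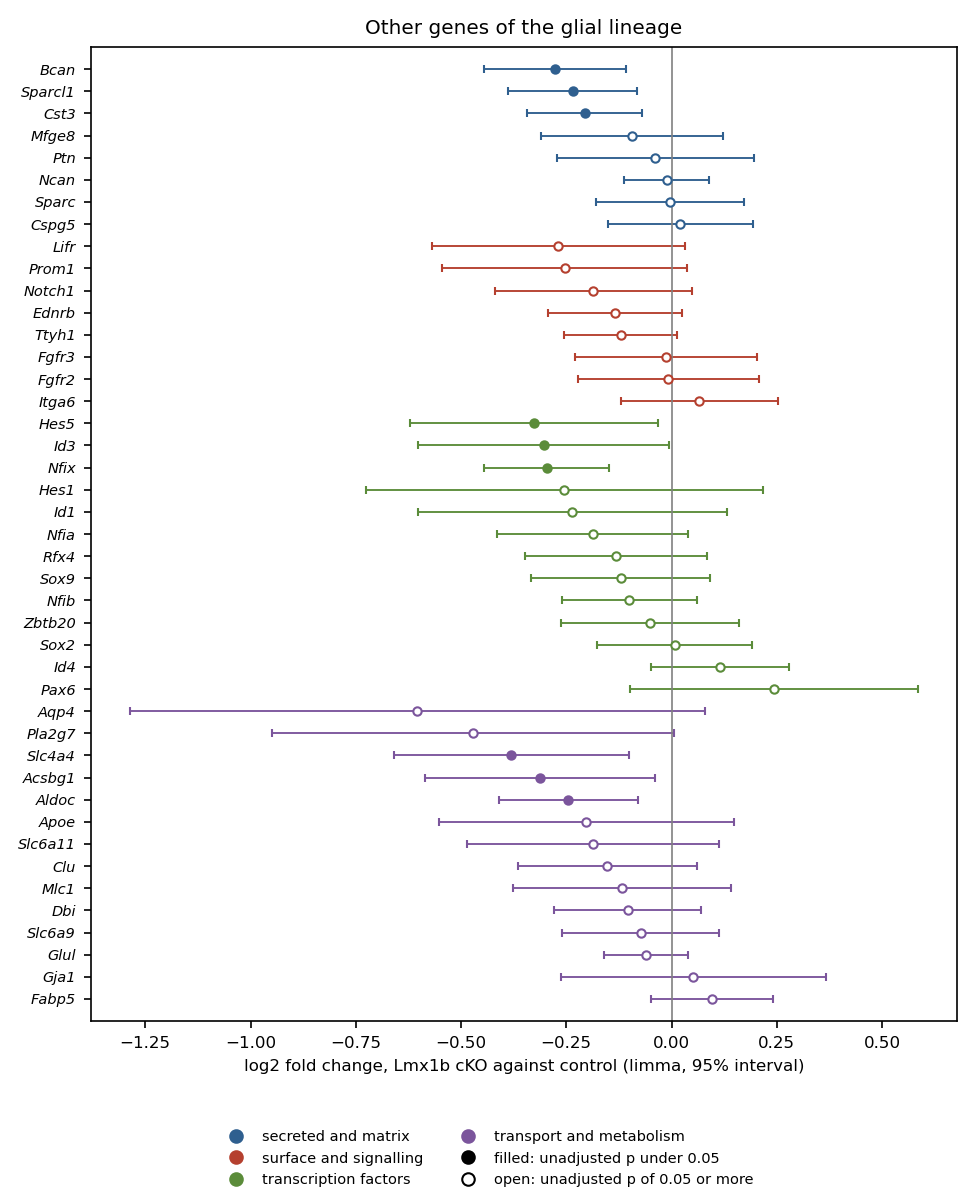
log2 fold change (cKO against control, 95% interval from limma) of the 43 tested genes of the glial lineage outside the 10 genes, coloured by list. The 9 filled points have an unadjusted p under 0.05 and all lie left of 0, between -0.38 (Slc4a4) and -0.21 (Cst3), and 36 of the 43 points lie left of 0.

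Among 13 transcription factors of the lineage, 10 had a lower mean and 3 were lower with an unadjusted p under 0.05. Of all genes tested, 49.5% were lower on the log2 scale and 1.61% were lower with such a p. Nfix, an NFI factor, had 2337, 2459 and 2644 normalized counts in cKO libraries, against 2828, 3059 and 3262 in controls. Its groups did not overlap, where 3.69% of all genes tested were lower without overlap. The log2 fold change was -0.30 (standard error 0.068, unadjusted p = 0.00101 in limma). The Notch target Hes5 (-0.33, unadjusted p = 0.0324) and the BMP target Id3 (-0.30, unadjusted p = 0.0464) had overlapping groups and lost this p in 4 and 3 of the 6 fits without a library. The transcript Gm20421 on the opposite strand shares 31.8% of the exon length of Hes5. Per kilobase, Id4 had the highest level of this list, and its log2 fold change was 0.11.

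Of 14 tested genes of transport and metabolism, 12 had a lower mean, where 49.5% of all genes tested were lower on the log2 scale. With an unadjusted p under 0.05, 3 of the 14 were lower, as were 1.61% of all genes tested. Aldoc, an astrocyte form of aldolase, had 1265 ± 65.0 normalized counts in cKO, against 1500 ± 115 in control (SD, n = 3), a log2 fold change of -0.25 with an unadjusted p of 0.00729 in limma. Its groups did not overlap, and 3.69% of all genes tested were lower without overlap. The bicarbonate transporter Slc4a4 (-0.38, unadjusted p = 0.0121) and the acyl-CoA synthetase Acsbg1 (-0.31, unadjusted p = 0.0282) had overlapping groups. Of these 3 genes, only Aldoc kept an unadjusted p under 0.05 in all 6 fits without a library. Glutamine synthetase (Glul), which uses the glutamate that the transporters take up and had the highest level per kilobase of the list, had 4746 ± 103 and 4948 ± 63.9 normalized counts, a log2 fold change of -0.060. The groups of Glul and of Aqp4 did not overlap either, with lower values in the cKO and an unadjusted p above 0.05 in limma.

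Among the 8 secreted and matrix genes, Bcan, Sparcl1 and Cst3 were lower with an unadjusted p under 0.05 in limma, and their groups did not overlap. Of all genes tested, 1.61% were lower with such a p and 3.69% were lower without overlap. Bcan, the lectican brevican, had 1424, 1405 and 1678 normalized counts in cKO libraries, against 1745, 1912 and 1783 in controls, and its log2 fold change was -0.28 (standard error 0.077, unadjusted p = 0.00394 in limma). Sparcl1 (hevin) had a log2 fold change of -0.24 and Cst3 (cystatin C) of -0.21, with unadjusted p-values of 0.00601 and 0.00641. The lectican neurocan (Ncan), the gene with the highest level per kilobase in this list, had 23322 ± 308 normalized counts in cKO, against 23548 ± 1470 in control, a log2 fold change of -0.012. Of the 8 tested genes of surface and signalling, 0 had an unadjusted p under 0.05. On the log2 scale, 7 of them had a lower mean, where 49.5% of all genes tested were lower. Ednrb, the highest per kilobase, had a log2 fold change of -0.13.

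Markers of other cells were summed in each library to see what moved beside the 10 genes. The bone and mesenchyme list of 10 genes had 3423, 1840 and 15944 normalized counts in the cKO libraries and 1607 to 1777 in the control libraries, and Col1a1, a bone and skin collagen, had 532, 14.8 and 6097 against 10.6 to 11.5. All 10 genes of the list had a higher mean in the cKO. Col3a1 and Col5a2 had an unadjusted p under 0.05 in limma, where 1.16% of all genes tested were higher with such a p. For 4 of the 10 genes, these 2 and Col1a1 among them, every cKO library was higher than any control library, as for 3.88% of all genes tested. In the sum of the list, cKO replicates a and c stood apart, and mesenchyme also expresses Vim and Tnc. Without cKO replicate c, 5 of the 10 genes had an unadjusted p under 0.05 (3.42% of all genes tested), and without cKO replicate a, 3 did (2.82%). With the mesenchyme level as a covariate, Tnc, Luzp2, Aldh1l1, Slc1a3 and Fabp7 had an unadjusted p under 0.05 in limma, and Tnc had a log2 fold change of -0.36. Of the 43 other glial lineage genes, 15 had such a p in this fit, 12 of them lower, as did 3.26% of all genes tested. The log2 mesenchyme level was 11.74, 10.85 and 13.96 in cKO libraries, against 10.76, 10.65 and 10.8 in controls. The slope of the covariate therefore rests almost only on the cKO libraries, and this fit cannot fully separate mesenchyme from genotype.

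The 10 genes of cycling progenitors summed to 5439, 7012 and 6695 normalized counts in cKO libraries, against 8303, 5286 and 6041 in controls. Control replicate a, the highest library for 5 of the 10 glial genes, was also the highest in cycling genes, and cKO replicate a was low in both. With the cycling level as a covariate, 7 of the 10 genes had an unadjusted p under 0.05 in limma, where the share of all genes tested rose from 2.76% to 4.13% and 1 gene, Aldh1a1, had an adjusted p under 0.05. These were the former 5 with Vim (log2 fold change -0.13, unadjusted p = 0.0431 in limma) and Slc1a2 (0.093, unadjusted p = 0.0252). Of the 43 other glial lineage genes, 16 had such a p in this fit, all of them lower. The part of cycling cells in the differences was not tested beyond this fit.

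Neuron genes, of which 7 of 12 were recovered, summed to 78414 to 87221 normalized counts in the cKO libraries and 79023 to 83473 in the control libraries, and 0 of 7 had an unadjusted p under 0.05. Genes of oligodendrocyte precursors (3673 to 4745 against 3799 to 4834) also overlapped between the groups. The 9 midbrain genes summed to 9919 to 11229 normalized counts in cKO libraries, against 11440 to 12680 in controls, and 8 of the 9 had a lower mean. Of these, En1, En2 and Pitx3 had an unadjusted p under 0.05 in limma and lower values in every cKO library, with log2 fold changes of -0.40, -0.46 and -0.41, where 1.61% of all genes tested were lower with such a p and 3.69% were lower without overlap. The Hox genes of the hindbrain summed to at most 6.34 normalized counts in any library. Endothelial and pericyte genes summed to 11819 to 12089 in the cKO and 11324 to 11901 in the control, with 0 of 11 at an unadjusted p under 0.05. Microglia genes summed to 641 to 677 in the cKO and 686 to 744 in the control. These sums did not overlap either, and all 5 genes had a lower mean, with 0 of 5 at an unadjusted p under 0.05 and a median log2 fold change of -0.25. Red blood cell genes summed to 5615 to 7574 and 5066 to 7169, with Hba-a1 at a log2 fold change of 0.26 (unadjusted p = 0.0396 in limma). The 4 choroid plexus genes summed to 79.6 to 116 in the cKO and 97.3 to 123 in the control. Most of these reads lay on Folr1, which had 81 to 102 in each library, while Ttr, a defining marker, was at 0 reads in 5 of the 6 libraries and had 6 reads in the other.

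**Figure D5:**
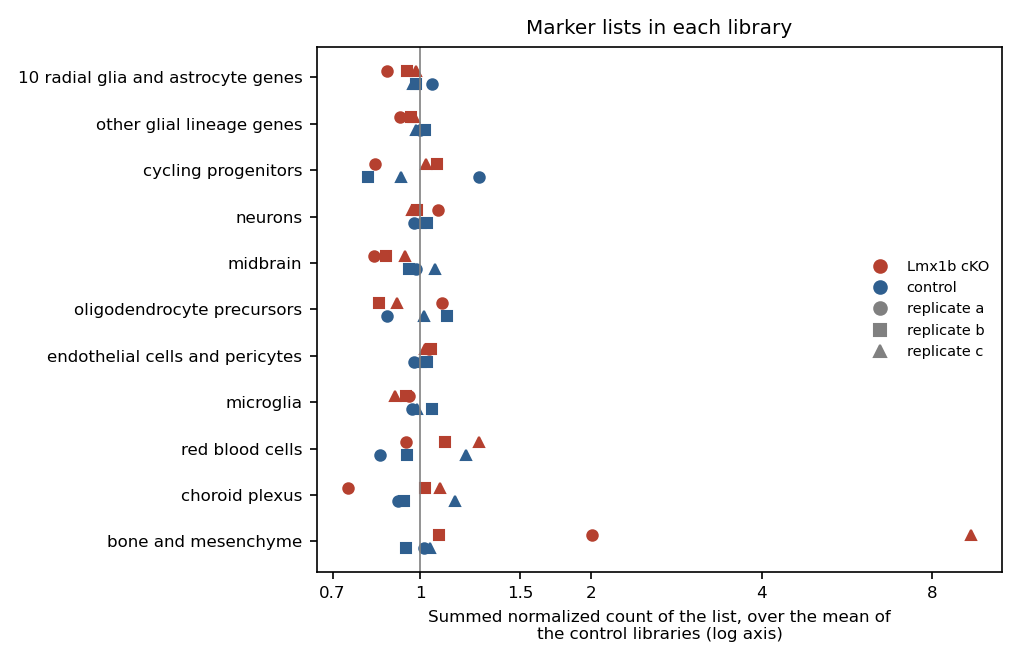
Summed normalized count of each marker list in each library, divided by the mean of the 3 control libraries (log axis). The bone and mesenchyme list stands out at 9.35 in cKO replicate c and 2.01 in cKO replicate a, and the 10 radial glia and astrocyte genes lie between 0.873 and 1.05 in all 6 libraries.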

How the data were processed

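E14.5 midbrains were dissected, and their RNA was sequenced as paired ends in 3 libraries of Lmx1b cKO and 3 of control embryos. The submitters' processing notes name TopHat 1.0.14, Bowtie2 2.1.0, HTSeq 0.6.1p1, DESeq 1.10.1 and genome GRCm38.p4, with no role for each, whereas the paper's methods name DESeq2. The authors deposited, as signal, the mean over the libraries of each group of read counts that had been scaled by library size factors. The deposited ratio, log2 ratio and p-value columns hold the authors' own comparison and were not used. The 3 rows that name no gene hold 31.8% of the mean counts and were left out.

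Each group mean is a sum of 3 whole read counts, each multiplied by a fixed step of its library. The steps were read from low means, and the whole numbers that give each printed mean to its last digit were searched for means up to 40000. A single answer was found for 26807 of 26852 genes. Of the others, 33 had a higher mean and 12 had several answers. On simulated counts, all single answers were correct. Size factors recomputed from the recovered reads differed by at most 0.00978%.

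The test was limma 3.58.1 (R 4.3.3) on the 17132 recovered genes that averaged at least 10 normalized counts (voom weights, recovered size factors, genotype as the only term, Benjamini-Hochberg over all genes tested) with, for single genes, the exact permutation test over the 6 libraries. The design assumed such a test because the table holds no counts per library. The unadjusted threshold of 0.05 is used only to describe. The script was tested on simulated data. Libraries are pools of embryos from shared litters, and p-values measure the spread between these pools. Gene positions and exon lengths come from GENCODE M21 on GRCm38, promoters from RefSeq on GRCm38.p6. Alternatives were limma-trend with pseudocounts of 1 and 10, minimum means of 0 and 100, upper quartile scaling, centring, 2 covariates, each library left out and, chosen after the data were seen, genes with means up to 20000. Scripts ran in Python 3.11.15 with numba 0.67.0, pandas 2.3.3, scipy 1.17.1, matplotlib 3.10.9 and numpy 2.4.6.

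The members and all gene lists were chosen with earlier results of these data known. A gene of the glial lists is not reported here and is left out of their counts. Genes named beyond the 10 are those of the glial lists with an unadjusted p under 0.05, the highest per kilobase of each list, other cell type markers with such a p and the 5 nearest profiles. Aldh1a1, Aqp4, Col1a1, Folr1, Gfap, Ptn and Ttr, and the comparison of Slc1a2 with Slc1a3, were added after values had been seen.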

Additional observations from a re-analysis of the deposited data

How the results depend on the processing

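The number of the 10 genes with an unadjusted p under 0.05 was 5 in the reported fit and 5 to 7 under limma-trend, other minimum means, other scaling, centring, both covariates and, as an alternative chosen after the data were seen, genes with means up to 20000. It lay between 3 and 6 when libraries were left out in turn, with 3 without cKO replicate a, cKO replicate b or control replicate a. The share of all genes tested with such a p, in either direction, lay between 1.97% (without control replicate c) and 4.13% (with the cycling covariate). Under all these settings 0 of the 10 genes had an adjusted p under 0.05 in limma. Of all genes tested, 5 had one without control replicate a, 1 had one with the cycling covariate, and 0 had one under the other settings. The median log2 fold change of the 10 genes was -0.12 with the cycling covariate, -0.16 with the mesenchyme covariate, between -0.15 and -0.13 under the other alternatives that kept all libraries (-0.13 from the ratio of the deposited means) and between -0.18 and -0.098 when libraries were left out in turn. The number of other glial lineage genes with an unadjusted p under 0.05 was 9, was 8 or 9 under the alternatives that kept all libraries and had no covariate, was 16 with the cycling and 15 with the mesenchyme covariate (a use of the covariates chosen after the data were seen), and lay between 8 and 16 when libraries were left out in turn. The genes whose sign turned had intervals that spanned 0. The log2 fold change lay between -0.26 and 0.0087 for Vim, between -0.10 and 0.048 for Nes, between -0.061 and 0.0070 for Ptprz1 and between -0.29 and 0.17 for Hopx when libraries were left out in turn, and it was 0.31 for Hopx with the mesenchyme covariate. The cause of these changes was not tested. No paired analysis was possible because the table holds group means only, and although its headers number the libraries of both genotypes alike, a recovered library could not be matched to its number. With 3 libraries a group, differences of the size seen here, under 20% of the control, did not reach an adjusted p under 0.05 for any of the 10 genes. The fits that leave out a library keep 2 libraries in that group.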

Other observations

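The ratio of Tnc to Ptprz1 per kilobase, a ligand to its receptor, was 0.974, 0.876 and 0.963 in cKO libraries, against 1.17, 1.19 and 0.967 in controls. All 3 cKO values were below 1, as was control replicate c. The ratio of Nes to Vim per kilobase was 0.598, 0.480 and 0.547 in cKO libraries, against 0.444, 0.542 and 0.517 in controls, with overlapping groups. The exact permutation test (two-sided, 0.1 at the smallest) gave p = 0.2 for Tnc to Ptprz1 and p = 0.4 for Nes to Vim, or 0.3 and 0.4 after Benjamini-Hochberg adjustment over the 3 ratios computed. Both ratios were looked at after the values of the single genes had been seen.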
